A study of Arabidopsis thaliana with 8 samples.

Results

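The chloroplast of *Arabidopsis thaliana* keeps a small circular genome of its own. Its genes encode core subunits of the photosynthetic complexes, the large subunit of Rubisco, part of the ribosome and RNA polymerase of the organelle, and its ribosomal and transfer RNAs. Many of them are transcribed together from neighbouring positions on one strand, and the transcripts are then cut and trimmed, so that the level of a chloroplast mRNA is known to depend on RNA-binding proteins and nucleases from the nucleus as well as on transcription. The chloroplast-encoded genes were taken here as every gene whose identifier starts with ATCG, which gave 133 of the 33602 genes counted. The levels of these genes were followed both as a part of the whole library and as a part of the chloroplast total, so that the mix of chloroplast transcripts could be described apart from their total share.

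The libraries came from whole 6-day-old seedlings grown at 23°C in short days with 8 h of light and 16 h of dark. The genotypes were the reference strain Col-0 and *pwr-2*, a T-DNA insertion mutant in the Col-0 background. *PWR* (*POWERDRESS*) encodes a SANT-domain protein that works with a histone deacetylase, and the mutant is a single insertion allele. Seedlings of each genotype were either kept at 23°C or shifted to 27°C for 2 h, which gave 4 groups of 2 libraries, named here by genotype, temperature and replicate number. Each library was a pool of seedlings, so its values average over leaves, hypocotyls and roots, and in such bulk RNA fewer cells of a type and less RNA per cell cannot be told apart.

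Between 7379650 and 15733741 fragments were counted per library. *PWR* had 43.1 to 81.7 CPM (counts per 1000000 counts of the scaled library) in the 4 Col-0 libraries and 11.3 to 20.1 CPM in the 4 *pwr-2* libraries, without overlap. Markers of green tissue (*LHCB1.3*, *LHCB2.1* and *LHCA4*) summed to between 17000 and 27018 CPM. Those of roots (*BGLU23*, *BGLU22*, *EXPA7* and *PRP3*) summed to between 1811 and 3396 CPM. The root sum came mainly from *BGLU23*, at 1761 to 3325 CPM, and is close to the level of that gene. *BGLU22* had 30.3 to 109 CPM, *EXPA7* 1.53 to 8.23 CPM and *PRP3* 2.71 to 85.0 CPM. The seed storage genes *CRA1* and *CRU3* ranged from 2.80 CPM together in *pwr-2* 23°C replicate 2 to 344 CPM in Col-0 23°C replicate 1.

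Names were given to 78 of the 133 genes, since the count tables hold identifiers only. For 65 the deposited gene length matched a single coding length of the RefSeq chloroplast annotation (assembly TAIR10.1, sequence of 154478 bases), for 12 a gene description from the study's supplement was also used, and 1 (*rpl22*) took the length that remained. For 3 of the 12, *matK*, *ycf3* and *ndhD*, the length differed from RefSeq and the name rests on the description. A further 45 genes had the lengths of transfer or ribosomal RNA genes, and 10 protein-coding genes are given by identifier. The counts covered the genome unevenly. All 37 transfer RNA and 8 ribosomal RNA genes were at 0 in every library. The authors filtered out ribosomal RNA reads, a step not described as removing transfer RNA. The ribosomal RNA genes came in pairs of equal length, of 1491, 2810, 103 and 121 bases. The transfer RNA genes were 71 to 92 bases long. The part of the filter, of paired copies or of gene length in the zeros was not tested. Of the 88 protein-coding genes, 73 had at least 1 count in a library and 62 exceeded 10 counts in some library. The 12 protein-coding genes of at most 123 bases, among them the small photosystem and cytochrome subunits *psbM*, *psbT*, *petN* and *petL*, never had more than 27 counts, and 6 of them were at 0. The named protein-coding genes that lie in both copies of the inverted repeat (*rpl2*, *rpl23*, *rps7* and *ycf2*) had at most 1 count. This held although *ycf2* is the longest gene of the genome at 6885 bases. Reads from identical copies align to both places, and counts of these genes are therefore uncertain and give no level. The mix is described below over the 60 genes with a mean of at least 10 counts over the 8 libraries. The tests used the 59 to 62 genes that passed edgeR's own filter in each comparison, which let in a few lower genes such as *psaJ* and *psbF*.

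Several of these genes touch or overlap on the genome, and stretches of sequence are shown for the genes on which the results turn (RefSeq, TAIR10.1, chloroplast genome). The overlap of *psbD* and *psbC*, which encode a reaction-centre protein and a core antenna protein of photosystem II, spans 53 bases. In it the start codon of *psbC* is in capitals, and a read that touches it overlaps both genes.
psbD and psbC overlap, chrPltd:33720-33772, plus strand: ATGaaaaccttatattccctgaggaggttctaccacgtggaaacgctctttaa
The genes of the beta and epsilon subunits of the ATP synthase, *atpB* and *atpE*, share 4 bases. These are in capitals and join the start codon of *atpE* to the stop codon of *atpB*.
atpB and atpE junction, chrPltd:52647-52676, minus strand: gtaaattgaagaaATGAccttaaatctttg
Upstream of *psbA*, the gene of the photosystem II reaction-centre protein that turns over fastest in light, the sequence holds bacterial-type promoter boxes (capitals) 115 bases before the start codon.
psbA promoter boxes, chrPltd:1530-1559, minus strand: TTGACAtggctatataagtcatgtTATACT
The motif searched was TTGACA, a spacing of 17 or 18 bases and TATAAT, with at most 1 mismatch over both boxes, on the coding strand of the 250 bases before each start codon. It was found before 2 of the 70 genes that could be placed (2.86%), *psbA* and *ndhF*. A match describes the letters only.

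The share of the chloroplast genes in all counts varied widely within groups. In Col-0 at 23°C the share was 6.71% in replicate 1 and 0.294% in replicate 2. The Col-0 libraries at 27°C held 1.28% and 0.394%. The *pwr-2* libraries held 6.46% and 0.0363% at 23°C but 3.28% and 2.11% at 27°C. Replicate 1 was above replicate 2 in each of the 4 groups, by 22.8-fold at 23°C and 3.24-fold at 27°C for Col-0, and by 178-fold at 23°C and 1.55-fold at 27°C for *pwr-2*. The exact binomial 95% intervals were narrow, for example 0.0353% to 0.0373% in the library with the lowest share, but they cover counting error only. The number of chloroplast counts thus ran from 5069 in *pwr-2* 23°C replicate 2 to 698701 in *pwr-2* 23°C replicate 1, and every value for the former carries the widest counting error.

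**Figure D1:**
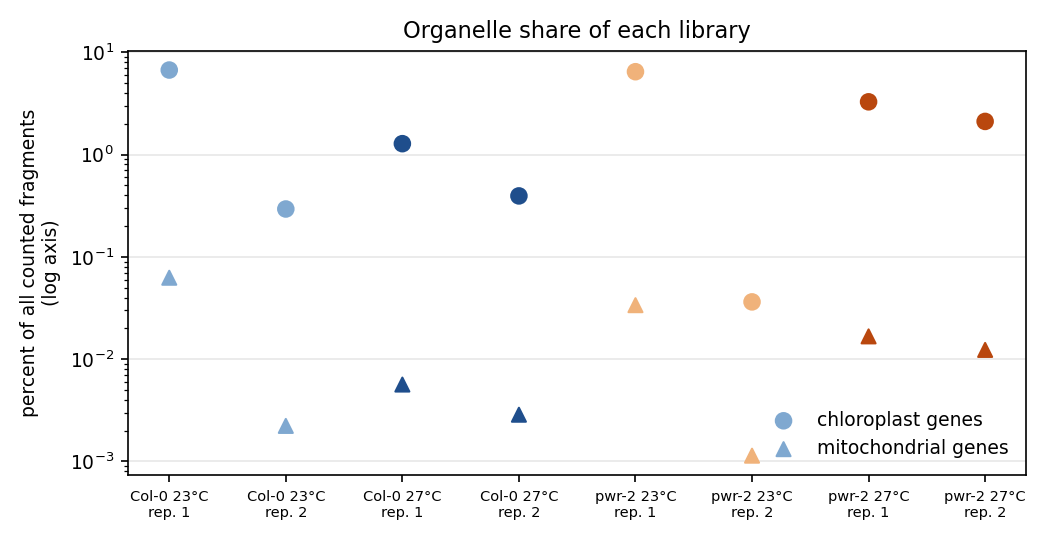
Share of all counted fragments that fell on chloroplast genes (circles) and mitochondrial genes (triangles) in each of the 8 libraries, in percent on a log axis. Chloroplast shares run from 0.0363% in *pwr-2* 23°C replicate 2 to 6.71% in Col-0 23°C replicate 1, and the mitochondrial shares follow the same order at the ends.

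The 146 mitochondrial genes moved with them. Their share was highest, at 0.0625%, in Col-0 23°C replicate 1 and lowest, at 0.00114%, in *pwr-2* 23°C replicate 2, the same libraries that held the highest and lowest chloroplast shares. Nuclear genes for plastid proteins did not span such a range. *RBCS1A*, a gene for the small subunit of Rubisco that pairs with the chloroplast-encoded large subunit, lay between 9536 CPM in *pwr-2* 27°C replicate 2 and 23933 CPM in *pwr-2* 23°C replicate 1. The chloroplast gene *rbcL*, which encodes that large subunit, lay between 41.6 and 11498 CPM. The whole list of 12 nuclear partners summed to between 29541 and 60672 CPM. The library with the highest chloroplast share had the fewest counts in all, and the part of depth or of the replicate number in the share was not tested. How the RNA was selected before sequencing is not given in the sources used here.

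The mix of chloroplast transcripts was read after dividing each gene by the chloroplast total of its library. Photosystem II genes held from 19.5% to 37.3% of the total, ATP synthase genes from 10.6% to 35.0%, photosystem I genes from 5.16% to 25.8%, and *rbcL* from 3.42% to 15.2%. Genes of the NDH complex, which feeds electrons back into the photosynthetic chain, held between 4.32% and 8.09%. Ribosomal protein genes held between 3.16% and 17.1%, and the 4 subunits of the plastid-encoded RNA polymerase between 1.57% and 9.29%. The cytochrome b6f genes were the steadiest of these classes outside 1 library, at 3.07% to 3.74%, against 1.03% in Col-0 27°C replicate 1.

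**Figure D2:**
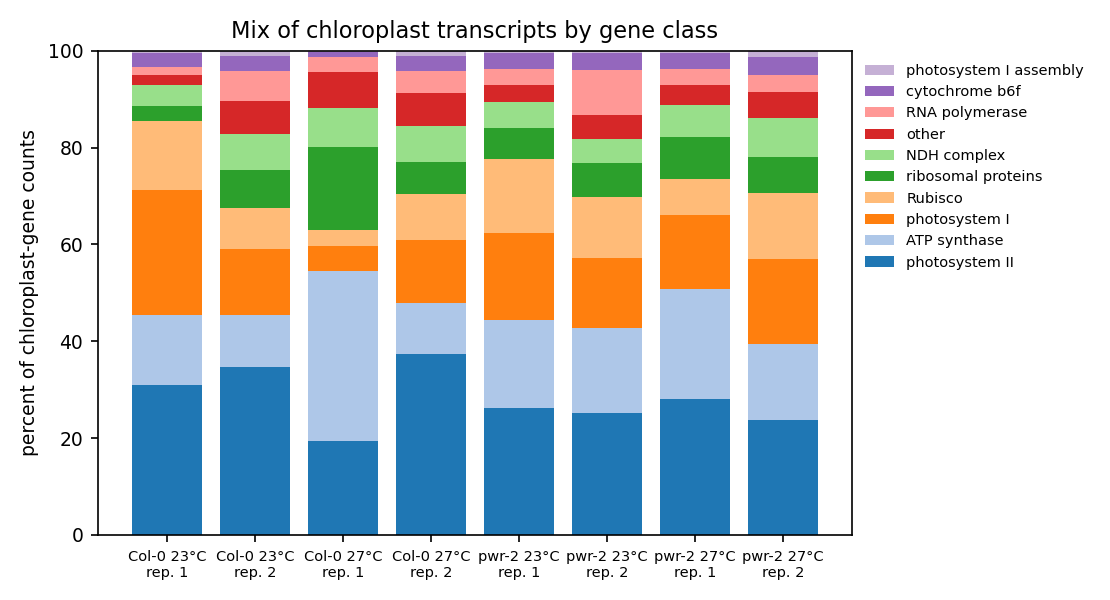
Stacked bars of the share of each gene class in the chloroplast counts of each library, in percent. Col-0 27°C replicate 1 stands apart, with 35.0% on ATP synthase genes and 5.16% on photosystem I genes.

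By the mean of raw counts per kb of gene, which the deeper libraries weigh most, the 10 highest protein-coding genes were *psbC*, *rbcL*, *psbD*, *atpB*, *atpE*, *psaB*, *psaA*, *atpA*, *psbA* and *rpl16*. With each library weighted equally the same 10 genes led, but *psbA* stood in place 4 rather than 9. The order was not fixed. Counts per kb of *rbcL* ranked from 1 in 3 libraries to 14 in Col-0 27°C replicate 1. Those of *psbA* ranked from 1 in *pwr-2* 23°C replicate 2 to 19 in *pwr-2* 27°C replicate 1. The pair *atpB* and *atpE* ranked 26 and 36 in Col-0 23°C replicate 2 but 2 and 1 in Col-0 27°C replicate 1. Of the 10, only *psbC* stayed within places 1 to 6 and *psbD* within places 2 to 9 in all 8 libraries, while each of the other 8 ranked below place 13 in at least 1 library.

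Col-0 27°C replicate 1 had a mix unlike that of any other library. Moving from its mix to another meant reassigning a median of 49.8% of the chloroplast counts over the 7 other libraries and at least 35.4%, whereas the medians for the other libraries were 21.2% to 26.7%. Of the 60 genes, 15 had their highest share in this library and 29 their lowest. By the median of this measure, libraries of the same group were about as far apart as others. The 4 pairs within a group differed by a median of 24.3% of the counts, the 12 pairs of the same replicate number by 23.0% and the 12 remaining pairs by 25.0%. The closest pair was Col-0 23°C replicate 2 and Col-0 27°C replicate 2, which differed by 4.86%. The Pearson correlation of the log2 shares ranged higher for pairs of the same replicate number, from 0.827 to 0.986. It ran from 0.750 to 0.925 within groups and from 0.724 to 0.933 for the remaining pairs.

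The genes that were high in Col-0 27°C replicate 1 lay in blocks on the genome. The *atpB*-*atpE* block held 32.2% of the chloroplast counts there and between 2.22% and 14.2% elsewhere. For *atpB* alone the shares were 5.90% and 1.91% at 23°C and 24.5% and 2.13% at 27°C in Col-0, against 7.37% and 8.50% at 23°C and 11.7% and 3.35% at 27°C in the mutant. The Col-0 libraries at 27°C thus held both the highest share and one of the lowest, and the groups overlapped. The neighbouring block *ndhC*-*ndhK*-*ndhJ*, for subunits of the NDH complex, held 6.33% in the same library and between 0.671% and 2.92% in the others.

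The third block ran from *rps19* to *rpoA*, 8 adjacent genes for ribosomal proteins and the alpha subunit of the RNA polymerase. It held 17.1% in Col-0 27°C replicate 1 and between 2.48% and 8.30% in the others. Within it *rps3*, for a protein of the small ribosomal subunit, made up 5.23% against 0.442% to 2.14% elsewhere. The long gene *ycf1*, for a large protein of the chloroplast envelope linked to protein import, made up 5.73% there, 2.79% and 2.59% in the replicate 2 libraries of Col-0, and 0.305% in Col-0 23°C replicate 1. In *pwr-2* its share was between 0.524% and 1.45%.

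Other blocks were low in the same library. The *psaA*-*psaB*-*rps14* block, which carries the reaction-centre proteins of photosystem I, held 6.37% there and between 13.4% and 26.3% in the others. *psaA* alone held 12.9% and 6.28% at 23°C and 2.45% and 5.89% at 27°C in Col-0, against 8.64% and 4.89% at 23°C and 7.21% and 8.02% at 27°C in the mutant. The low share of *psaA* and *psaB* was not shared by *rps14* of the same block, since counts of *rps14* were 0.460 times those of *psaB* in Col-0 27°C replicate 1 and between 0.0433 and 0.105 times in the other libraries. The *atpI*-*atpH*-*atpF*-*atpA* block held 2.71% against 6.98% to 11.96%, so that the ATP synthase genes lay in a block that was high in this library and in another that was low.

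**Figure D3:**
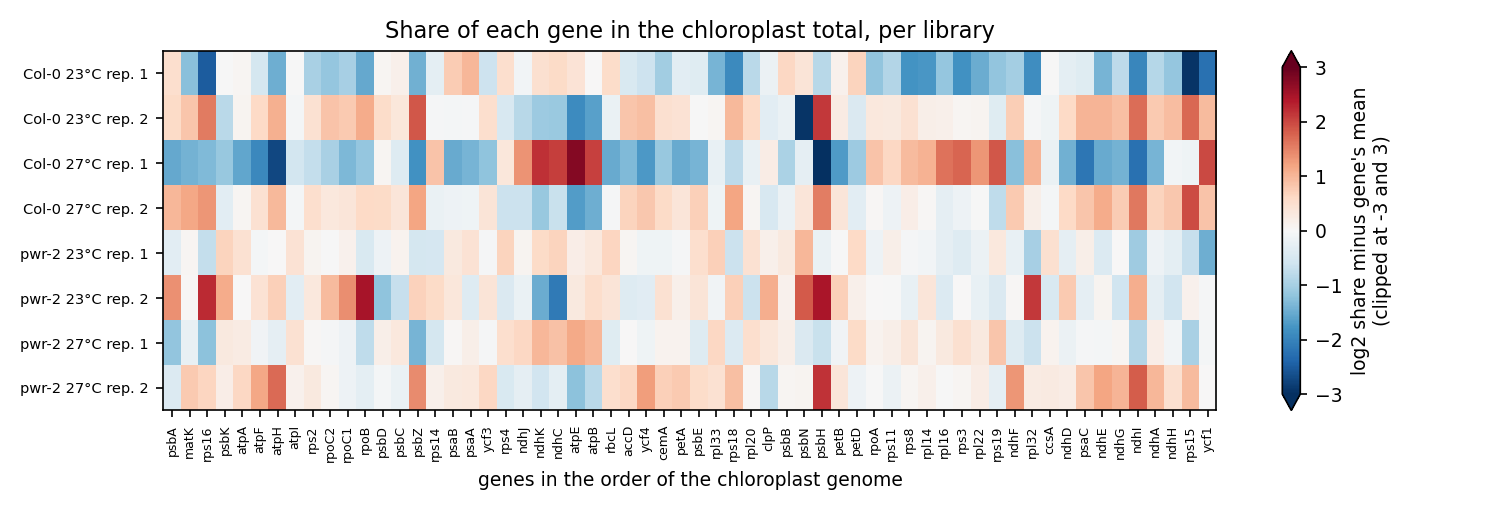
Each column is 1 of 60 chloroplast genes in genome order and each row a library. The colour gives the log2 share of the gene in the chloroplast counts minus its mean over the 8 libraries. Neighbouring genes such as *ndhJ* to *atpB* and *rpoA* to *rps19* change together in Col-0 27°C replicate 1, where 29 genes have their lowest share.

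Neighbours on the same strand deviated by similar amounts. For the log2 share in Col-0 27°C replicate 1 minus the mean of the other 7 libraries, the median difference between adjacent same-strand genes was 0.63 over 45 pairs, against 1.48 over all 1770 pairs of genes. Across the 60 genes the deviation had a Spearman rho of 0.48 with the adenine content of the gene. Base content was read over the whole genomic span of each gene, introns included. With GC content of that span rho was -0.06 and with the deposited gene length, which leaves introns out, -0.06. These are descriptions across genes that share transcripts and a library, and genes are not independent replicates. The longest adenine runs in *ycf1*, with 13 bases, and in *rpoA*, with 14 bases, are shown in capitals as examples from genes that were high in this library. Runs as long also occurred in genes that were low there, with 13 bases in *accD* (deviation -1.51) and in *rpoC2* (deviation -1.11).
ycf1 (ATCG01130), chrPltd:125859-125888, minus strand: aaatggagAAAAAAAAAAAAAtactcttta
rpoA, chrPltd:78087-78116, minus strand: aacctaagAAAAAAAAAAAAAAcaaaagaa
The length of the longest run itself, over the same span, had a rho of 0.22 with the deviation. The part of base composition in this pattern was not tested.

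The replicate number separated more genes than either factor of the design. Shares were compared here with 0.5 added to each count. For 22 of the 60 genes (36.7%) all 4 replicate 1 libraries lay wholly above or wholly below all 4 replicate 2 libraries. In CPM 20.3% of all genes with a mean of 10 counts did so. Among the 22, *rps15* was separated only with the 0.5 added. Its plain shares overlapped, at 0.0245% in Col-0 27°C replicate 1 and 0.0197%, from 1 count, in *pwr-2* 23°C replicate 2. In that *pwr-2* library *rps16* also had 1 count, *psbZ* had 2, and *ycf3* and *ndhC* had 3 each. Replicate 1 was higher for *rps4*, *ndhJ*, *ndhK* and *ndhC*, which follow each other on the genome, and lower for the other 18. Those 18 included *rpoB* and *rpoC2* of the RNA polymerase, *atpF* and *atpH* of the ATP synthase, *ndhD*, *ndhE*, *ndhF* and *ndhI* of the NDH complex, and *petA* and *petB* of the cytochrome complex. Genotype separated 1 of the 60 genes (1.67%), *psbK* of photosystem II, higher in *pwr-2*, where 6.59% of all genes were separated in CPM. Temperature separated none of the 60 genes, where 1.31% of all genes were separated.

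Some of these differences lay between genes that are cotranscribed. *ndhI* had 0.172 and 0.502 counts per count of *ndhH* in Col-0 at 23°C and 0.0663 and 0.509 in Col-0 at 27°C. The mutant had 0.175 and 0.947 at 23°C, then 0.173 and 0.756 at 27°C. The 0.947 rests on 18 counts of *ndhI* and 19 of *ndhH*. In all 4 groups the ratio was higher in replicate 2. The ratio of *atpH*, for the ring subunit of the ATP synthase, to its neighbour *atpI* was between 0.0455 and 0.157 in replicate 1. It was between 0.419 and 0.616 in replicate 2, where the 0.419 of *pwr-2* at 23°C rests on 18 and 43 counts. *psaA* and *psaB*, by contrast, kept a ratio between 0.854 and 0.999 in 7 libraries and 0.509 in *pwr-2* 23°C replicate 2.

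The comparison of the genotypes at 23°C asked whether the *pwr-2* mutation went with a shift in chloroplast transcripts without a temperature change. Relative to the whole library, 0 of 61 genes tested passed an adjusted p of 0.05 in edgeR's quasi-likelihood test. The lowest adjusted p was 0.976, and 0 (0%) of all 19170 genes passed. None of the 61 was at an unadjusted p under 0.05, against 4.53% of all genes. DESeq2 called none of the 61 either. The pairs went opposite ways. The median log2 difference, *pwr-2* minus Col-0, was 0.89 for replicate 1 and -3.27 for replicate 2, and only 8 of 61 genes had the same sign in both. *rbcL* had 9441 and 241 CPM in Col-0 and 11498 and 41.6 CPM in *pwr-2*, so the replicates of a genotype stood further apart than the genotypes did. Its fitted log2 value was -1.13 (SE 1.15) and that of *psbA* -1.47 (SE 0.74). Each SE in this report is the absolute fitted value divided by the square root of the test's F statistic. It was not estimated directly. Relative to the chloroplast total, 0 genes passed, with a lowest adjusted p of 0.973, and 0 (0%) of all genes passed. At an unadjusted p under 0.05 there were 2 (3.28%), against 4.63% of all genes. Relative to the library the lowest fitted values were *psbD* at -2.44 (SE 1.75) and *psbC* at -1.997 (SE 1.61), and the highest were *psbN* at 0.94 (SE 0.61) and *psbF* at 0.58 (SE 1.23). Relative to the chloroplast total *psbD* at -0.98 (SE 0.73) and *psbC* at -0.53 (SE 0.74) were again the lowest, with *rpl33* at 1.41 (SE 0.66) and *psaJ* at 1.397 (SE 0.78) highest. On that scale *rbcL* was at 0.34 (SE 0.73) and *psbA* at -0.01 (SE 0.68).

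At 27°C the chloroplast genes were higher in *pwr-2* relative to the whole library. *rbcL* had 446 and 364 CPM in Col-0 and 2711 and 2599 CPM in *pwr-2*, without overlap, a log2 fold change of 2.71 (SE 0.34, edgeR adjusted p = 0.0332). Of 60 genes tested, 31 passed the threshold, all higher in *pwr-2*, where 1.05% of all 19324 genes passed and 0.828% passed as higher. The median log2 fold change of the 60 genes was 2.21 (all genes -0.01), and the medians of the 2 pairs were 2.20 and 2.50. All 60 fitted differences were above 0 and 57 genes were higher in both pairs. The 60 genes share the chloroplast total of each library and are not independent. As a share of all counts that total was 2.57 and 5.35 times as high in *pwr-2* in the pairs. Between replicates of a group the share differed 3.24-fold (Col-0) and 1.55-fold (*pwr-2*) at 27°C. At 23°C it differed 22.8-fold and 178-fold.

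The genes past the threshold came from every functional class. All 3 tested genes each of photosystem I and of the cytochrome b6f complex passed, with 6 of 10 NDH genes, 4 of 6 ATP synthase genes, 2 of 4 RNA polymerase genes, and 4 of 16 ribosomal protein genes. For *atpH* the level was 4.35 and 16.8 CPM in Col-0 and 66.8 and 139 CPM in *pwr-2*, a log2 fold change of 3.46 (SE 0.34, adjusted p = 0.0315). *psaA* had 319 and 226 CPM in Col-0 and 2586 and 1529 CPM in *pwr-2*, with a fitted log2 difference of 2.88 (SE 0.34, adjusted p = 0.0323). Of the photosystem II genes, 2 of 9 passed, *psbB* and *psbK*. *psbA* had 196 and 331 CPM in Col-0 and 688 and 623 CPM in *pwr-2*, a log2 difference of 1.35 (SE 0.35) that did not pass (edgeR adjusted p = 0.127).

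The ends of the range show how far single genes departed from the common shift. *psbH*, a small phosphoprotein of photosystem II, had the highest fitted log2 difference, 3.84 (SE 0.79, edgeR adjusted p = 0.0821), which depends strongly on single libraries and ran from 2.03 to 10.48 as each was left out. It had no count in Col-0 27°C replicate 1 and 2.98 CPM in replicate 2, against 6.04 and 22.9 CPM in *pwr-2*. The lowest was *ycf1*, at 0.43 (SE 0.54, edgeR adjusted p = 0.773), with 747 and 99.4 CPM in Col-0 and 493 and 277 CPM in *pwr-2*. *rps15*, for a small-subunit ribosomal protein, followed with 3.19 and 3.99 CPM in Col-0 and 4.96 and 10.02 CPM in *pwr-2*, a log2 difference of 0.98 (SE 0.39, edgeR adjusted p = 0.278). Among the mitochondrial genes 2 of 22 tested were also called higher in *pwr-2*, and the median over the 22 was 1.66.

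The count of 31 depended on the fit. Without the replicate number as a block no gene passed, and none passed with all 8 libraries in a single fit. The fits that left out a library had no block either, so they are read against that count of 0. Without Col-0 27°C replicate 1, 50 chloroplast genes passed, with 8.48% of all genes. Without Col-0 27°C replicate 2, 18 passed, with 1.05% of all genes. Without either *pwr-2* library none passed. The median fold change was between 1.79 and 2.69 in these fits.

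**Figure D4:**
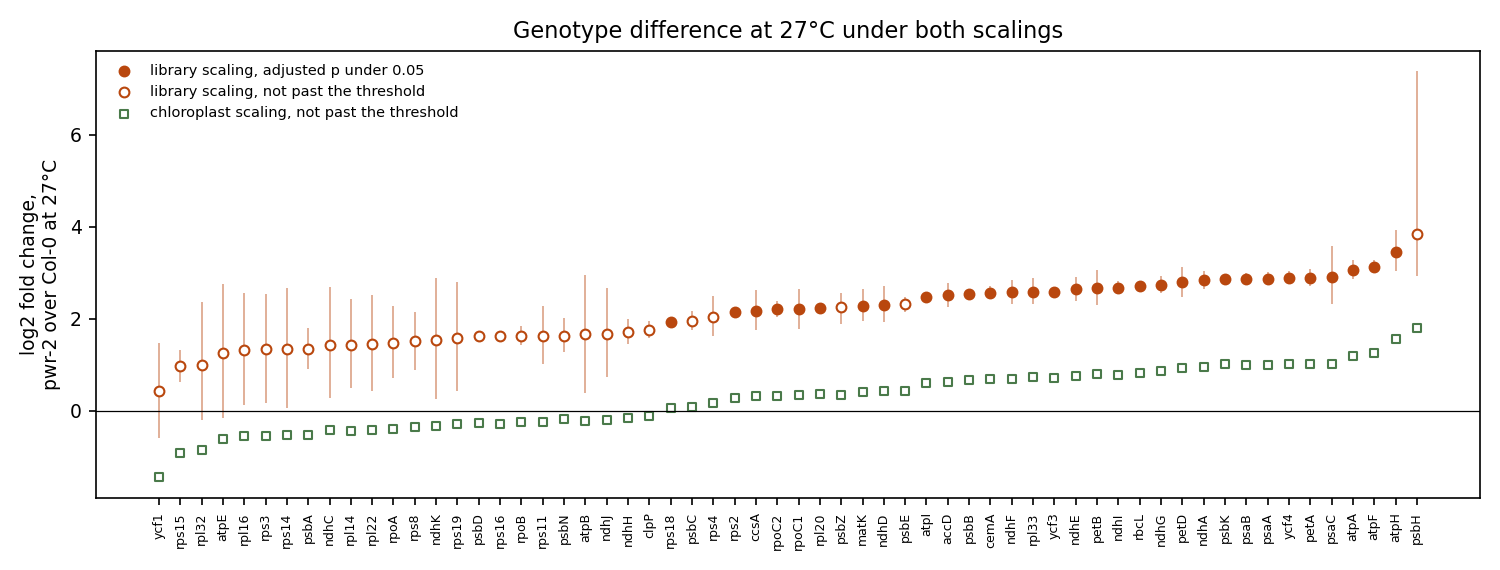
Fitted log2 fold change of *pwr-2* over Col-0 at 27°C for 60 chloroplast genes, relative to the whole library (circles, filled where the adjusted p was under 0.05; vertical lines join the values of the 2 replicate pairs) and relative to the chloroplast total (squares). All circles lie above 0, with a median of 2.21, whereas the squares spread around a median of 0.34 and none passes.

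Relative to the chloroplast total, 0 of the 60 genes differed between the genotypes at 27°C past the threshold, with a lowest adjusted p of 0.148, where 0.704% of all genes passed. At an unadjusted p under 0.05 there were 13 (21.7%), against 16.6% of all genes. Without Col-0 27°C replicate 2 and without the block, 3 genes passed, with 0.971% of all genes. The median was 0.34, with 36 genes above and 24 below 0. *rbcL* made up 3.42% and 9.50% of the chloroplast counts in Col-0 and 7.56% and 13.6% in *pwr-2*, so the groups overlapped, with a log2 difference of 0.83 (SE 0.35, edgeR adjusted p = 0.311). *psbA* made up 1.51% and 8.63% in Col-0 and 1.92% and 3.27% in *pwr-2*, a log2 difference of -0.53 (SE 0.48, edgeR adjusted p = 0.672). *atpH* and *psbH* had the highest values, 1.57 (SE 0.45) and 1.81 (SE 0.90), and *ycf1* and *rps15* the lowest, -1.45 (SE 0.40) and -0.90 (SE 0.37), with edgeR adjusted p between 0.148 and 0.391. Of these, *ycf1* and *rps15* were lower in *pwr-2* in both pairs.

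The comparison of 27°C with 23°C asked what 2 h of warmth did to these transcripts in each genotype. In Col-0, 0 of 59 genes passed relative to the whole library (edgeR, lowest adjusted p = 0.943), as did 0 (0%) of all 19386 genes. None of the 59 was at an unadjusted p under 0.05, against 3.9% of all genes, and DESeq2 called none of the 59. Without Col-0 23°C replicate 2 and without the block, 9 genes passed, all lower at 27°C, with 0.501% of all genes. The pairs again disagreed, with a median of -2.52 for replicate 1 and 0.34 for replicate 2. *psbA* had 4076 CPM at 23°C and 196 at 27°C in the replicate 1 libraries, but 185 at 23°C and 331 at 27°C in the replicate 2 libraries. Its fitted log2 value was -1.78 (SE 1.71) and that of *rbcL* -1.91 (SE 1.66). The lowest on this scale were *psbH* at -2.49 (SE 1.69) and *psaA* at -2.22 (SE 1.68), and the highest *rps3* at 0.71 (SE 0.37) and *ycf1* at 1.09 (SE 0.48). Relative to the chloroplast total 0 of 59 genes passed in Col-0 (lowest adjusted p = 0.942), and 0 (0%) of all genes did. At an unadjusted p under 0.05 there was 1 (1.69%), against 3.97% of all genes. The most positive values were those of *ycf1* and *rpl32*, at 2.07 (SE 1.28) and 1.75 (SE 0.75). The most negative were those of *psbH* and *psaA*, at -1.84 (SE 1.06) and -1.25 (SE 0.75). *rbcL* was at -0.94 (SE 0.74) and *psbA* at -0.80 (SE 0.74). For *ycf1* the pairs were 4.23 and -0.11 and for *rpl32* they were 2.88 and 0.21, so that these values rested mainly on the replicate 1 libraries.

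In *pwr-2*, 0 of 61 genes passed between the temperatures relative to the whole library (edgeR, lowest adjusted p = 0.407), where 0.42% of all 19050 genes did. None of the 61 was at an unadjusted p under 0.05, against 18.1% of all genes, and DESeq2 called none. The median was -1.08 for replicate 1 and 6.03 for replicate 2, and 1 gene of 61 had the same sign in both. The lowest fitted log2 values were *psbN* at -0.85 (SE 1.25) and *psaJ* at -0.31 (SE 1.22), and the highest *psbD* at 3.10 (SE 2.76) and *ndhA* at 3.05 (SE 2.74). Between them lay *psbA* at 1.05 (SE 1.92) and *rbcL* at 1.93 (SE 3.18). The median of 6.03 rests on *pwr-2* 23°C replicate 2 with its 5069 chloroplast counts. Without *pwr-2* 23°C replicate 1, so that this library alone stood for 23°C, and without the block, 58 genes passed, all higher at 27°C, with 224 of 19735 genes in all.

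Within the chloroplast total 1 of 61 genes passed in *pwr-2*, *psbA*, which was lower at 27°C. It made up 3.49% and 11.3% of the chloroplast counts at 23°C and 1.92% and 3.27% at 27°C, and every 27°C library was below both 23°C libraries. The log2 fold change was -1.32 (SE 0.23, edgeR adjusted p = 0.0434), with -0.86 and -1.79 in the pairs. On this scale 3.08% of all 19050 genes passed and 0.73% passed as lower. The count of all genes differs from that of the fit relative to the library although only the chloroplast genes were scaled anew, since the spread is estimated over all genes together. In the library with the fewest chloroplast counts the exact 95% interval of the *psbA* share was 10.4% to 12.2%. *psbA* no longer passed when the chloroplast genes were scaled by trimmed means or when the replicate block was left out, and leaving out single libraries gave log2 values from -2.12 to -0.43.

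The other extremes in *pwr-2* did not pass. *psaJ*, of photosystem I, was at -1.85 (SE 0.70), *rpoB*, the beta subunit of the RNA polymerase, at -1.48 (SE 0.55), *ndhA* at 0.72 (SE 0.24) and *ycf1* at 0.82 (SE 0.31), with edgeR adjusted p between 0.173 and 0.226. *rbcL* was at -0.46 (SE 0.26, edgeR adjusted p = 0.404). *rpoB* made up 0.599% and 4.52% at 23°C and 0.482% and 0.668% at 27°C, so its value rested on *pwr-2* 23°C replicate 2.

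**Figure D5:**
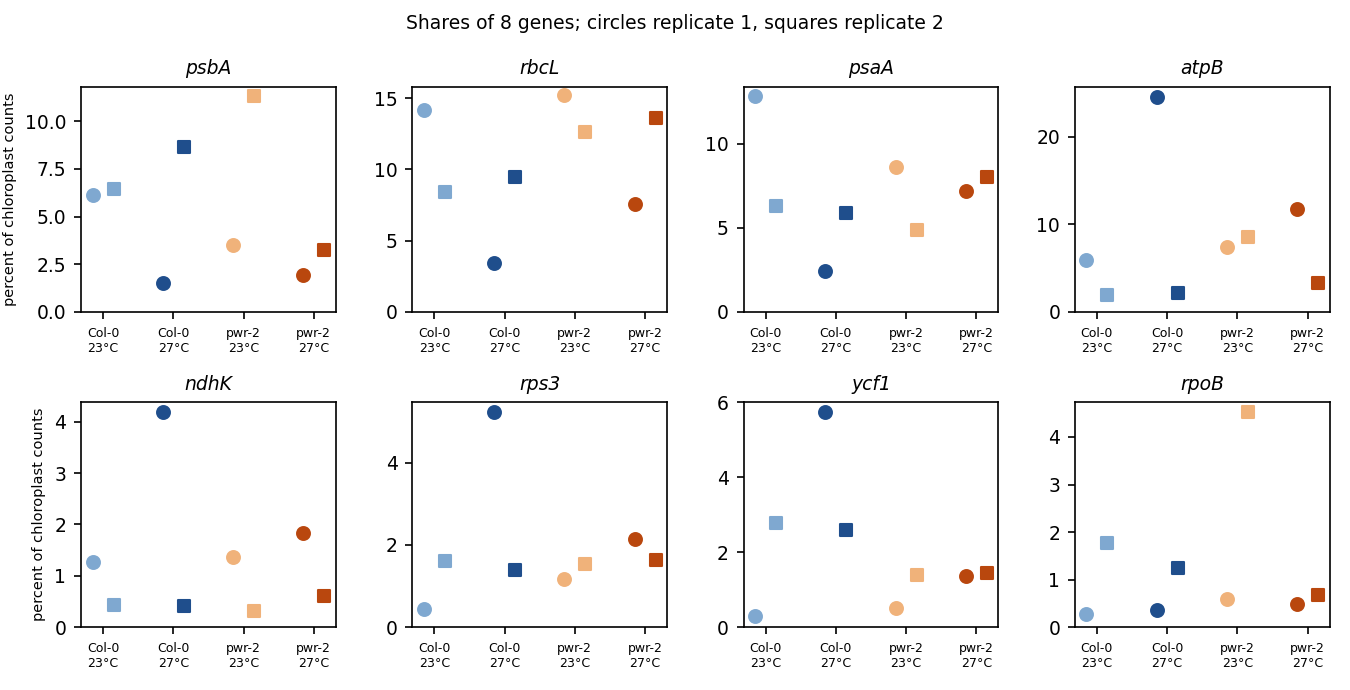
Share of 8 genes in the chloroplast counts, in percent, for each library, by group (circles replicate 1, squares replicate 2). For *psbA* both *pwr-2* libraries at 27°C lie below both at 23°C, whereas *atpB*, *ndhK*, *rps3* and *ycf1* are highest in Col-0 27°C replicate 1.

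Whether the genotypes responded differently to temperature was tested with the interaction over all 8 libraries. Relative to the whole library 0 of 62 genes passed (edgeR, lowest adjusted p = 0.948), as did 0 (0%) of all 19936 genes. None of the 62 was at an unadjusted p under 0.05, against 4.59% of all genes, and DESeq2 called none of the 62. All 62 fitted values were above 0, with a median log2 value of 2.17, and the pair medians were 1.21 and 5.71. The interaction sets the difference at 27°C against that at 23°C, so it shares their libraries. The 62 genes share each library's chloroplast total and are not independent. The highest were *psaA* at 3.46 (SE 2.61) and *psaB* at 3.32 (SE 2.44) and the lowest *rps15* at 0.03 (SE 2.18) and *psaJ* at 0.46 (SE 2.12), with *psbA* at 1.87 (SE 2.23) and *rbcL* at 2.78 (SE 2.60). Within the chloroplast total 0 of 62 passed (lowest adjusted p = 0.949), where 0 (0%) of all genes did. None was at an unadjusted p under 0.05, against 4.67% of all genes. The median was -0.01. The lowest were *rpl32* at -2.32 (SE 1.24) and *atpE* at -2.25 (SE 1.31) and the highest *psaA* at 1.34 (SE 0.83) and *ycf4* at 1.01 (SE 0.80), with *psbA* at -0.53 (SE 0.85) and *rbcL* at 0.47 (SE 0.82).

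Nuclear genes that act on chloroplast transcripts were listed to be read beside these values. The list of 21 genes for plastid transcription holds the phage-type polymerases, the sigma factors that guide the plastid-encoded polymerase to promoters, and the proteins bound to that polymerase. None of them passed in any comparison, and at 27°C their median log2 difference, *pwr-2* minus Col-0, was -0.61, with 11 at an unadjusted p under 0.05, where 16.8% of all genes were. *SIG5*, a sigma factor linked to light and stress, had 156 and 157 CPM in Col-0 and 74.0 and 45.7 CPM in *pwr-2* at 23°C. Its log2 difference there was -1.43 (SE 0.36, edgeR adjusted p = 0.976). At 27°C it had 93.8 and 144 CPM in Col-0 and 126 and 85.5 CPM in *pwr-2*, so the groups overlapped. *RPOTP*, a phage-type polymerase, had between 28.6 and 102 CPM. None of the 11 genes for plastid RNA stability and processing passed either (median -0.35 at 27°C, 4 at an unadjusted p under 0.05), nor did any of the 12 nuclear partners of chloroplast-encoded subunits (median -0.12 at 27°C, 1 at an unadjusted p under 0.05). *PWR* itself was lower in *pwr-2* at 27°C by a log2 value of -1.95 (SE 0.26, edgeR adjusted p = 0.0376) and was at -2.32 (SE 0.35, edgeR adjusted p = 0.976) at 23°C.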

How the data were processed

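RNA-seq libraries from 8 pools of seedlings were analysed from the raw count tables. Per the study's methods, SortMeRNA removed ribosomal RNA reads, and the authors aligned paired reads of 90 bp to TAIR10 with TopHat2 2.1.0 and Bowtie2 2.1.0, and then counted fragments per gene with featureCounts 1.4.5, so the deposited counts are unscaled. Use of strand in counting is not given in the sources used here. A table of normalised values, with 8 columns of single libraries, was not used.

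The members and lists were chosen with earlier results of these data known. Genes were named by length against RefSeq, 12 of them with gene descriptions from the study's supplement, which could not be checked by position. Each comparison was fitted across all genes that passed filterByExpr with edgeR 4.0.16 (quasi-likelihood test, TMM, R 4.3.3), the replicate number as a block as in the study's methods, and Benjamini-Hochberg adjustment over all genes tested, with a threshold of 0.05. For the chloroplast scaling, chloroplast genes were offset by the log of their total in each library. SE values were calculated back from the F statistic, as the absolute log2 value over its square root. CPM used TMM library sizes, and 0.5 was added to counts before log2 was taken. Nothing in the labels says that replicates of a number shared a day. Same-group libraries are biological replicates by the study's account. Genes named by rule were the 10 highest per kb, the 2 highest and 2 lowest fitted values per comparison and scale, and the member of each class with the most counts. *psbA*, *rbcL* and *PWR* were also set beforehand. Other genes, among them *RBCS1A*, *SIG5*, *RPOTP*, *ndhI* and *psbK*, were named outside these rules. Alternatives were DESeq2 1.42.0, other scalings and filters, no block, and omission of each library, the last without the block.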

Additional observations from a re-analysis of the deposited data

Results flagged for a closer look

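The share of chloroplast genes in all counts moved opposite ways between the genotypes at the 2 temperatures. At 23°C the log2 ratio of the share, *pwr-2* over Col-0, was -0.0545 in replicate 1 and -3.02 in replicate 2, and at 27°C it was 1.36 and 2.42. Both pairs were thus below 0 at 23°C and above 0 at 27°C. The difference in the total was not tested, the replicate 1 value at 23°C is close to 0, and the replicate 2 value rests on the library with 5069 chloroplast counts. After scaling by trimmed means (TMM) the replicate 1 value at 23°C was 0.19, so that the opposite signs hold for the raw share only. The interaction tests of single genes in the report found none past the threshold.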

How the results depend on the processing

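The fits at 27°C between genotypes, relative to the library, called 31 genes, with 1.05% of all genes. The count was 32 with DESeq2 size factors (1.27% of all genes), 31 with a filter at a mean of 10 counts (1.05%) and 40 with no filter (2.95%), but 49 with DESeq2 (4.82%) and 0 with all 8 libraries in one fit. Without the replicate block, which pairs libraries by number, it was 0. The count for *psbA* in *pwr-2* relative to the chloroplast total went from 1 to 0 without the block and also to 0 with TMM factors within the chloroplast genes. In all other comparisons no count changed except when a library was left out. Omission fits had no block and assume that a lone library varies like the others. Counts then ranged from 0 to 50 for the genotypes at 27°C and from 0 to 3 for them relative to the chloroplast total, from 0 to 9 for temperature in Col-0 and 0 to 58 in *pwr-2* relative to the library, and from 0 to 1 in *pwr-2* relative to the chloroplast total.

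Single log2 values often changed sign, mostly where no gene passed. Without the replicate block these were, relative to the library, *rbcL* (0.24) and *psbC* (0.070) for the genotypes at 23°C, *ycf1* (-0.15) for them at 27°C, *psbA* (-1.03), *rbcL* (-1.12) and *psbD* (-0.21) for temperature in *pwr-2*, and *rps15* (-0.31) for the interaction. Relative to the chloroplast total it was *psbA* at 23°C (0.23), which also turned without the most abundant gene in the total (0.035). With DESeq2 *psbF* at 23°C (-0.13), *psbN* (0.82) and *psaJ* (0.10) for temperature in *pwr-2*, and *rps15* (-0.015) for the interaction turned, and with all 8 libraries *rbcL* at 23°C (0.030) and *psbN* in *pwr-2* (0.021) did. With each library left out in turn, these ranged across 0. Relative to the library they were *psbA* (-5.82 to 2.88), *rbcL* (-6.85 to 4.604), *psbD* (-7.98 to 3.04), *psbC* (-7.54 to 3.51) and *psbN* (-5.53 to 9.39) for the genotypes at 23°C, *ycf1* (-0.95 to 1.96) for them at 27°C, *psbA* (-3.95 to 0.52), *rbcL* (-4.55 to 0.76), *psaA* (-4.98 to 0.61), *rps3* (-1.67 to 3.01) and *ycf1* (-0.51 to 2.42) for temperature in Col-0, *psbN* (-2.71 to 4.67), *psaJ* (-1.65 to 2.51), *psbA* (-2.01 to 4.13), *rbcL* (-2.12 to 5.99), *ndhA* (-0.78 to 7.19) and *psbD* (-1.20 to 7.69) for it in *pwr-2*, and *psbA* (-1.56 to 7.15), *rbcL* (-1.89 to 9.58), *rps15* (-1.33 to 6.08), *psaJ* (-0.92 to 3.56), *psaB* (-1.20 to 10.01) and *psaA* (-1.29 to 10.997) for the interaction. Relative to the chloroplast total they were *psbA* (-0.85 to 0.84), *psaJ* (-0.62 to 1.68) and *rbcL* (-0.030 to 0.72) at 23°C, *psbH* (-1.12 to 10.54), *psbA* (-1.73 to 0.79), *rps15* (-2.18 to 0.41) and *atpH* (-0.32 to 3.77) at 27°C, *psbH* (-10.26 to 1.28) and *psbA* (-2.06 to 0.45) for temperature in Col-0, *psaJ* (-3.55 to 0.17) in *pwr-2*, and *rbcL* (-0.14 to 1.33), *atpE* (-3.62 to 1.51) and *psbA* (-1.96 to 0.56) for the interaction. Class shares did not move without ribosomal and transfer RNA genes, all at 0. Depth limits the values of *pwr-2* 23°C replicate 2 most, since at 5069 counts a gene at 0 could hold up to 0.0592% of the chloroplast total (3 counts, counting error only).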

Other observations

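Thinned to the 5069 chloroplast counts of the shallowest library, the libraries would be expected to show between 54.5 genes (Col-0 27°C replicate 1) and 59.3 genes (Col-0 27°C replicate 2), against the 61 genes seen in *pwr-2* 23°C replicate 2 itself. The 3 thinned replicate 2 libraries were each expected to show between 59.1 and 59.3 genes and the 4 replicate 1 libraries between 54.5 and 57.3. These are expected values from the counts, with no test. The ratio of chloroplast to mitochondrial counts was 31.9 in *pwr-2* 23°C replicate 2 and between 107 and 226 in the other libraries.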
